A study of Mus musculus with 16 samples.

Results

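The genes described here are 10 regulators of the Polycomb and trithorax systems, Ezh1, Ezh2, Eed, Suz12, Jarid2, Bmi1, Cbx2, Cbx7, Ring1 and Kmt2a, listed by name. A probe was matched through its RefSeq target accession for 9 of the 10, and these 9 are among 37154 genes tested. Kmt2a, the H3K4 methyltransferase of the trithorax side, was matched to no probe and was not analysed here, so counts of members called are out of 9. Their mRNA was measured in differentiating mouse embryonic stem (ES) cells of 2 genotypes, Sp1+/+ (labelled E14) and Sp1-/-, in which the mutated locus yields a truncated protein that lacks the DNA-binding domain of Sp1. All samples carry the strain label C57BL/6. For each genotype, 4 sorted populations were studied, namely Flk1+ cells, which contain hemangioblasts, HE1 and HE2, an earlier (KIT+ Tie2+ CD41-) and a later (KIT+ Tie2+ CD41+) hemogenic endothelium, and progenitors, sorted as KIT+ CD41+ Tie2-. The last 3 came from blast cultures started with Flk1+ cells. Each of the 8 groups has 2 arrays, which gives 16. The series design calls the replicates biological whereas a supplementary legend speaks of technical replicates, so each p covers only the spread between these samples. Each genotype is represented by 1 ES cell line and was hybridized on 1 slide of its own, and Sp1 status, clone and slide therefore cannot be told apart.

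Polycomb proteins keep developmental genes, the Hox clusters foremost, in a silent state. Polycomb repressive complex 2 (PRC2) methylates histone H3 at lysine 27 through Ezh1 or Ezh2, with Eed and Suz12 as further core subunits and Jarid2 as a cofactor, and canonical PRC1 reads this mark through a Cbx protein and ubiquitinates histone H2A through Ring1 or its paralog Rnf2, held by a Pcgf protein such as Bmi1. Trithorax complexes built around Kmt2 enzymes methylate H3 at lysine 4 and oppose this silencing. Sp1 is a widely expressed activator that binds GC boxes, which are common in promoters rich in CpG.

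Values are deposited log2 intensities, normalized by the authors, from the brightest probe of each gene. A gene was called where limma's moderated test, fitted to all 16 arrays, gave a Benjamini-Hochberg adjusted p of at most 0.05 over all 37154 genes. The arrays resembled each other closely, since the 2 replicates of a group correlated at Pearson's r of 0.990 to 0.997 and no array pair fell under 0.946. Between 67.0% and 77.1% of spots were well above background, and 0 spots of any array were saturated. Sp1 itself, the check of the genotype, lay between 12.14 and 12.56 on the 8 Sp1+/+ arrays and between 9.03 and 10.29 on the 8 Sp1-/- arrays. The Flk1+ mesoderm and endothelial marker lists (5 genes each) followed the sort. The former had a mean log2 intensity of 12.1 to 13.1 in Flk1+ cells and at most 8.14 elsewhere. The latter was highest in HE1, at 11.9 to 12.3. Itga2b (CD41) peaked in HE2 but averaged 10.605 and 11.045 in Sp1+/+ and Sp1-/- HE1, sorted as CD41-, against 7.835 and 7.76 in Flk1+ cells. Tek (Tie2) peaked in HE1 and averaged 9.01 in Sp1+/+ and 7.97 in Sp1-/- progenitors, sorted as Tie2-. The erythroid list (6 genes) differed between the Sp1+/+ HE1 arrays, at 11.4 and 8.53. The cardiac and smooth muscle list (5 genes) differed between the genotypes. In HE1 it was at 12.07 to 12.53 in Sp1+/+ and 13.18 to 13.97 in Sp1-/- cells, with 2 genes called higher. In Flk1+ cells it was at 9.08 to 9.31 and 10.55 to 10.74, with 2 called higher. In HE2 0 were called. The 4 ES cell genes, 1 called higher, averaged 8.67 to 9.06 in Sp1+/+ and 9.33 to 9.655 in Sp1-/- Flk1+ cells. The part of such cells in the Flk1+ and HE1 differences of the members was not tested. Kdr, which encodes Flk1 itself, was not restricted to Flk1+ cells, with group means from 13.7 to 14.9 across all 8 groups. In bulk RNA of a sorted population, a lower share of expressing cells and less RNA per cell cannot be told apart.

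The promoters show where GC boxes lie in these genes. The 250 bases before an annotated start of 9 members (10 promoters, 2 of them for Jarid2) were available from RefSeq on the mouse build GRCm38.p6, and Cbx2 was not among them. These starts are not always the outermost of the gene. The windows of Cbx7 (gene at chr15:79915804-79971143) and the second Jarid2 start lie inside the annotated gene, and those of Ezh2 and Kmt2a overlap it. A GC box, GGGCGG on either strand with overlapping matches counted separately, was present in 7 of the 10, against 32.7% of all 32851 promoters in the same table. Bmi1 held 6, Kmt2a 4, Suz12 3, Ring1 2, Cbx7 1 and each Jarid2 promoter 1, whereas Ezh1, Ezh2 and Eed held 0 in this window. Shown here 5′ to 3′ are Ring1 and Cbx7, the members that differed most toward higher values in Sp1-/- cells, and Bmi1 and Ezh2, which stand at opposite ends of the count. Capitals mark the GC boxes.

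Ring1 (chr17:34024681-34024930, minus strand): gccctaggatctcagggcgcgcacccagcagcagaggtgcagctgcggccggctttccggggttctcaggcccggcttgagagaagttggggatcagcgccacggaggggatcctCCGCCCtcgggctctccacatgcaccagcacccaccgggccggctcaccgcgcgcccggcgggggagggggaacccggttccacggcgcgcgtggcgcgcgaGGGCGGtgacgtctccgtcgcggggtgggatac

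Cbx7 (chr15:79932647-79932896, minus strand): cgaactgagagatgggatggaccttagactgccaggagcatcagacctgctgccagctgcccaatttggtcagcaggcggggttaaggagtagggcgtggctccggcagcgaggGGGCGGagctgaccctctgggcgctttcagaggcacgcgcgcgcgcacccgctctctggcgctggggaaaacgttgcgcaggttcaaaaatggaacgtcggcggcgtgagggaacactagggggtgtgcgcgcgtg

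Bmi1 (chr2:18676768-18677017, plus strand): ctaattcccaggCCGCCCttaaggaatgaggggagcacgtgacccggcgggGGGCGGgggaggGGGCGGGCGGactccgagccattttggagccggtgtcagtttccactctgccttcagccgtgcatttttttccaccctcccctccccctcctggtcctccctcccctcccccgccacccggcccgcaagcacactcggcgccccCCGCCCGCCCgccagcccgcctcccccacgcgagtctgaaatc

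Ezh2 (chr6:47595031-47595280, minus strand): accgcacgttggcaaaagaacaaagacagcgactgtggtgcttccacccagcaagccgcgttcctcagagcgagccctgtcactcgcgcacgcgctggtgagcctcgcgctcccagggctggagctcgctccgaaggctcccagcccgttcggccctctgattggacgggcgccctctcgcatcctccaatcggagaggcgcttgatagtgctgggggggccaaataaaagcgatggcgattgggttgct

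Counted from the start used for each window, the boxes of Ring1 begin at positions -135 and -33 and the single box of Cbx7 at -136. These matches are a description of the letters and are no measure of binding.

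The first question was how the members change along the path from Flk1+ cells to progenitors. In Sp1+/+ cells the main step was that from Flk1+ cells to HE1, at which 8 of the 9 members were called, against 24.8% of all genes. The 6 that fell comprise most of PRC2 (Ezh2, Eed, Suz12 and Jarid2) and the PRC1 subunits Cbx2 and Ring1, while Ezh1 and Bmi1 rose, against 13.6% of all genes called lower and 11.2% called higher. The 8 changes ranged from a fall by 1.35 to a rise by 0.73 on the log2 scale with standard errors between 0.0846 and 0.207. Cbx7, close to background in these cells, differed by -0.04 with a 95% confidence interval of -0.50 to 0.42. In Sp1-/- cells the same step brought 6 calls, all of them falls, against 28.6% of all genes called and 16% called lower, and these are the 6 genes that fell in Sp1+/+ cells. Successive steps share arrays (HE1 ends the first and starts the second), so their values are not independent of each other. Without the first Sp1+/+ array of Flk1+ cells the calls of Ezh1 (0.51) and Bmi1 (0.58) in Sp1+/+ cells were lost, as they were for Ezh1 without the first HE1 array and for Bmi1 without the second. Both were also lost with processed scanner signals scaled at the 75th percentile (0.58 and 0.69, adjusted p = 0.103 and 0.0555 by limma). When only the arrays compared were fitted, the Sp1+/+ calls of Ezh1 and Ring1 were lost (adjusted p = 0.0556 and 0.0667 by limma).

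**Figure D1:**
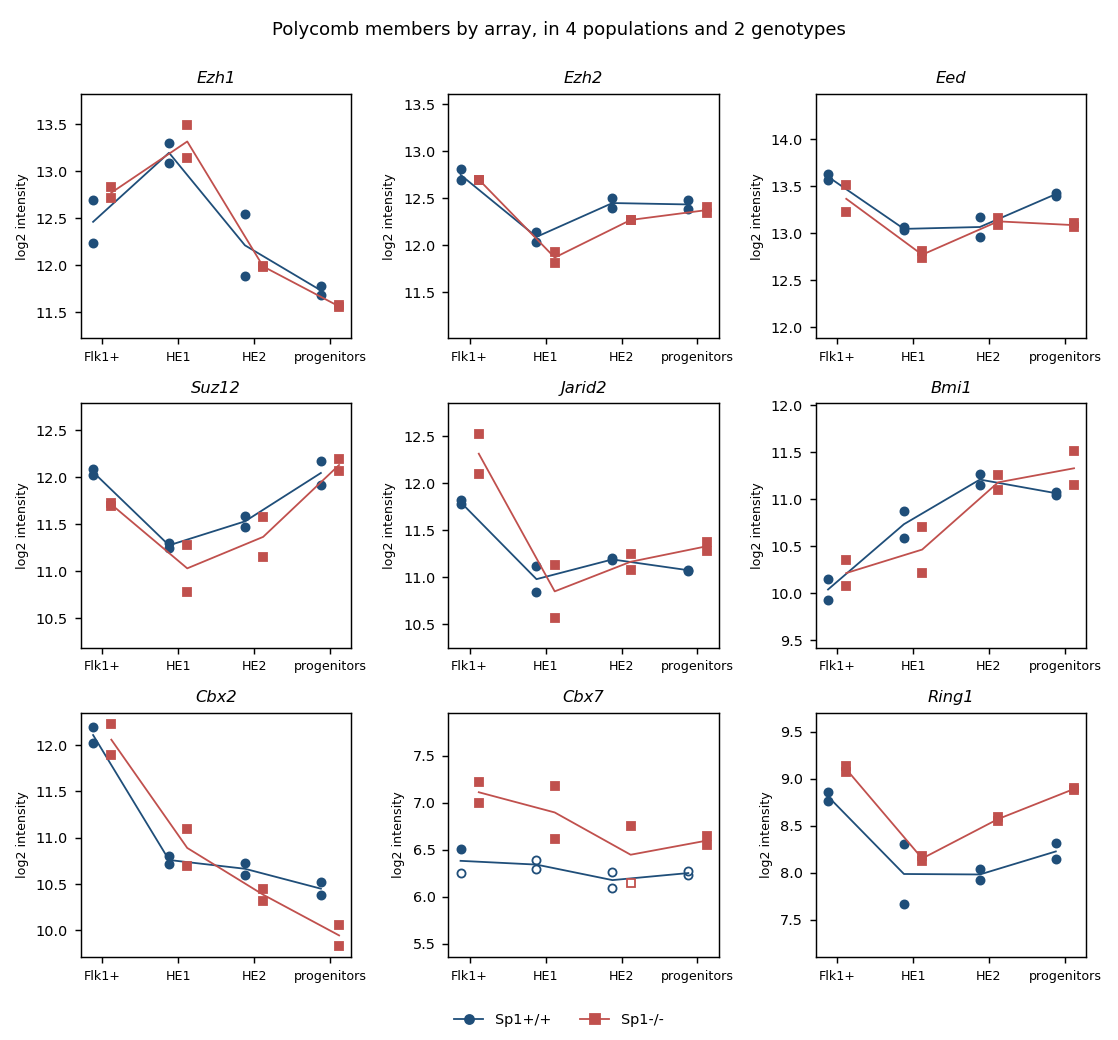
Log2 intensity (vertical axis) of each member in Flk1+ cells, HE1, HE2 and progenitors (horizontal axis). Each point is 1 array, lines join the means of 2 arrays, filled points were well above background and open ones were not. The vertical axis differs between panels. Cbx2 lies at 11.89 or above in Flk1+ cells and at 11.09 or below in the other populations of both genotypes, and the Sp1-/- arrays of Cbx7 lie above the Sp1+/+ arrays in Flk1+ cells, HE1 and progenitors.

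Ezh1 and Ezh2, the alternative catalytic subunits of PRC2, ran in opposite directions into and out of HE1. Ezh1 stood at 12.23 and 12.69 in Sp1+/+ Flk1+ cells, 13.30 and 13.09 in HE1, 11.88 and 12.54 in HE2, with progenitors at 11.78 and 11.68. In Sp1-/- cells it stood at 12.71 and 12.83, then 13.14 and 13.49, then 11.98 and 11.99, and finally 11.57 and 11.55. HE1 was thus the highest population in both genotypes, without overlap with any other. The fall from HE1 to HE2 was called in both, at -0.99 in Sp1+/+ (adjusted p = 0.0109 by limma) and -1.33 in Sp1-/- cells (adjusted p = 0.00111 by limma). The rise into HE1 was called in Sp1+/+ cells (0.73, adjusted p = 0.0219 by limma) and had an adjusted p of 0.0732 in Sp1-/- cells, where it measured 0.55. A second probe of Ezh1 gave changes of the same sign at these steps (0.65 and 0.40 into HE1, -0.91 and -1.22 out of it), and the remaining, dim probe, with a mean of 7.13, was called at neither step. The Sp1+/+ fall out of HE1 was not called without the first HE1 array (-0.88) or the first HE2 array (-0.66).

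Ezh2 was lowest in HE1. Its Sp1+/+ values were 12.81 and 12.69 in Flk1+ cells, 12.14 and 12.04 in HE1, 12.50 and 12.40 in HE2, with progenitors at 12.48 and 12.39. The Sp1-/- values were 12.70 and 12.70, then 11.93 and 11.81, then 12.27 and 12.27, and then 12.34 and 12.41. Within each genotype both HE1 arrays lay below all other arrays. Ezh2 fell by 0.66 into HE1 in Sp1+/+ and by 0.83 in Sp1-/- cells, and rose again by 0.36 and 0.40 into HE2, all 4 changes being called. The Sp1+/+ rise was not called without the second HE1 or the first HE2 array (0.31 in either case). From HE2 to progenitors it differed by -0.02 and 0.10, neither of which was called. Over the whole path Ezh2 ended lower than it began by 0.32 in either genotype, both called, but when processed scanner signals scaled at the 75th percentile were used instead, the Sp1-/- value turned to 0.0529 and the Sp1+/+ value was not called (-0.20, adjusted p = 0.402 by limma). The 2 calls were also lost without the first Flk1+ or the second progenitor array in Sp1+/+ cells, and without either Flk1+ or the first progenitor array in Sp1-/- cells.

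Eed, the subunit of PRC2 that binds methylated H3, had a shallower course. It was at 13.57 and 13.63 in Sp1+/+ Flk1+ cells, 13.06 and 13.03 in HE1, 13.17 and 12.96 in HE2, with progenitors at 13.43 and 13.40. In Sp1-/- cells it was at 13.22 and 13.51, 12.81 and 12.73, 13.09 and 13.16, and 13.11 and 13.06. Flk1+ cells were highest in both genotypes. The fall into HE1 was called at -0.55 and -0.60. From HE1 to HE2 Eed rose in Sp1-/- cells (0.36, adjusted p = 0.0373 by limma) and measured 0.02 in Sp1+/+ cells. From HE2 to progenitors it measured -0.04 in Sp1-/- and 0.35 in Sp1+/+ cells (adjusted p = 0.122 by limma), neither called. The Sp1-/- call was lost in 10 of the 16 cases in which 1 array was left out. The difference between the genotypes at these steps was tested as a shift of the Sp1 effect and was not called (adjusted p = 0.610 and 0.361 by limma).

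Suz12, required for the stability of PRC2, fell and returned. Sp1+/+ cells gave 12.02 and 12.09 in Flk1+ cells, 11.25 and 11.30 in HE1, 11.59 and 11.47 in HE2, with progenitors at 11.92 and 12.17. Sp1-/- cells gave 11.69 and 11.73, 11.28 and 10.78, 11.58 and 11.15, and 12.19 and 12.07. HE1 was lowest, although in Sp1-/- cells its arrays overlapped with those of HE2. The fall into HE1 was called in both genotypes (-0.78 and -0.68), in Sp1-/- cells not without the second Flk1+ array (-0.66) or the second HE1 array (-0.43). The rise from HE2 to progenitors was called in Sp1-/- cells (0.76, adjusted p = 0.0115 by limma) and was 0.51 in Sp1+/+ cells (adjusted p = 0.159 by limma). The Sp1-/- call was lost without the second HE2 array (0.55, adjusted p = 0.102 by limma) or the first progenitor array (0.70, adjusted p = 0.0813 by limma).

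Jarid2, which recruits PRC2 to its targets, left the level of Flk1+ cells and did not return. Sp1+/+ Flk1+ cells were at 11.82 and 11.78, HE1 at 11.12 and 10.84, HE2 at 11.20 and 11.18, and progenitors at 11.08 and 11.07. Sp1-/- cells were at 12.53 and 12.10, then 10.57 and 11.13, 11.08 and 11.25, and 11.38 and 11.28. Every Flk1+ array was above every other array of its genotype. The fall into HE1 was 0.82 in Sp1+/+ cells (1.77-fold) and 1.47 in Sp1-/- cells (2.76-fold), and HE1, HE2 and progenitors did not differ from their neighbors in the order of levels at an adjusted p of 0.05. The Sp1+/+ fall was not called without the second HE1 array (-0.68).

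Bmi1, the Pcgf subunit of canonical PRC1, was the member that ended highest relative to its start. Its Sp1+/+ values were 9.93 and 10.15 in Flk1+ cells, 10.59 and 10.88 in HE1, 11.15 and 11.27 in HE2, with progenitors at 11.05 and 11.08. Its Sp1-/- values were 10.08 and 10.35, 10.71 and 10.22, 11.26 and 11.10, and 11.15 and 11.51. HE2 and progenitors were above Flk1+ cells and HE1 on every array in both genotypes. From Flk1+ cells to progenitors Bmi1 rose by 1.02 in Sp1+/+ and by 1.11 in Sp1-/- cells (2.03- and 2.17-fold). In Sp1+/+ cells the step into HE1 was called (0.70, adjusted p = 0.0143 by limma) and in Sp1-/- cells the step from HE1 to HE2 (0.71, adjusted p = 0.0173 by limma). The second Bmi1 probe was called at the same steps in each genotype, at 0.58 and 1.10 on the log2 scale. The Sp1-/- call was lost without the second HE1 array (0.47) or either HE2 array.

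Cbx2, a chromodomain subunit of PRC1, showed the largest change among the members. Sp1+/+ cells gave 12.20 and 12.02 in Flk1+ cells, 10.80 and 10.72 in HE1, 10.73 and 10.60 in HE2, with progenitors at 10.52 and 10.38. Sp1-/- cells gave 12.23 and 11.89, 11.09 and 10.69, 10.45 and 10.32, and 10.06 and 9.83. Means decreased at every step in both genotypes. The whole path amounted to a fall by 1.66 in Sp1+/+ (3.16-fold, adjusted p = 1.25e-05 by limma) and by 2.12 in Sp1-/- cells (4.33-fold, adjusted p = 1.11e-06 by limma), most of it at the step into HE1. The further fall from HE1 to HE2 was called in Sp1-/- cells (-0.51, adjusted p = 0.0417 by limma) and measured -0.10 in Sp1+/+ cells. That call was lost in 11 of the 16 cases in which 1 array was left out.

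Ring1, one of the E3 ligases for H2A, was present at a low level that was well above background on all 16 arrays. Sp1+/+ values were 8.86 and 8.76 in Flk1+ cells, 8.30 and 7.67 in HE1, 7.92 and 8.04 in HE2, with progenitors at 8.14 and 8.31. Sp1-/- values were 9.13 and 9.07, 8.18 and 8.12, 8.59 and 8.55, and 8.90 and 8.88. The fall into HE1 was called in both genotypes at -0.82 and -0.95, the Sp1+/+ value being -0.51 without the second HE1 array and -1.14 without the first. From Flk1+ cells to progenitors Ring1 fell by 0.58 in Sp1+/+ cells (adjusted p = 0.0210 by limma), and in Sp1-/- cells the difference was -0.21 (adjusted p = 0.350 by limma). Leaving out either Sp1+/+ Flk1+ array or the first Sp1+/+ progenitor array removed the former call.

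**Figure D2:**
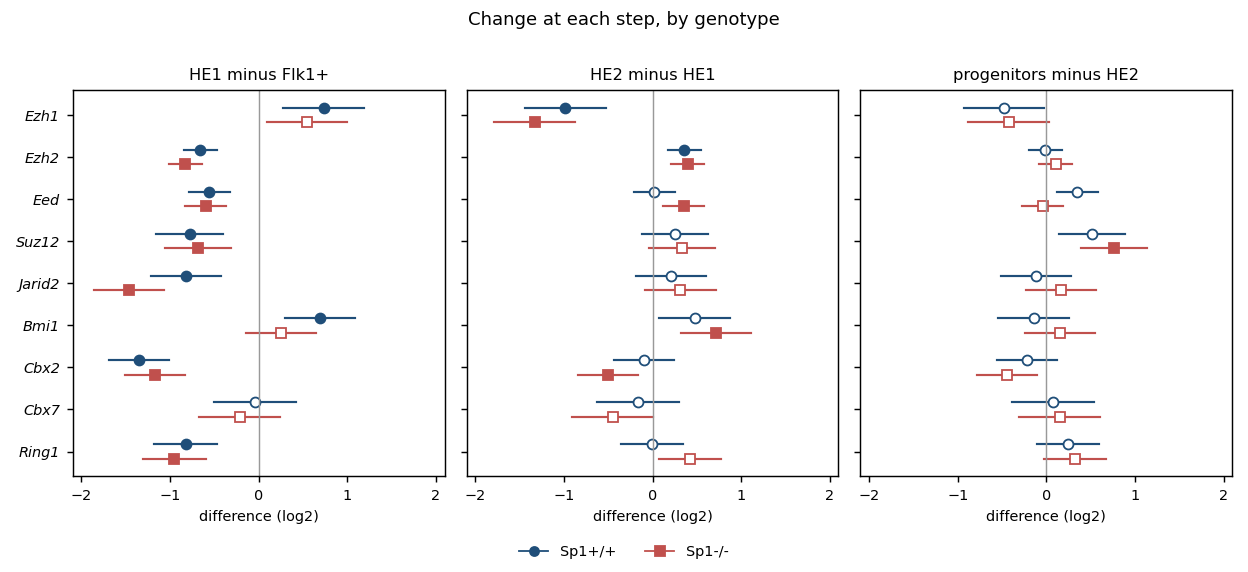
Difference in log2 intensity (horizontal axis) at each of the 3 steps for each member, in Sp1+/+ (blue circles) and Sp1-/- cells (red squares). Bars are 95% confidence intervals from the fit across all 16 arrays, and filled symbols were called at an adjusted p of at most 0.05. Most filled symbols lie in the panel of HE1 minus Flk1+ cells, with 8 in Sp1+/+ and 6 in Sp1-/- cells, and 0 Sp1+/+ symbols are filled at the last step.

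At the later steps fewer members were called. From HE1 to HE2 they were 2 in Sp1+/+ cells (Ezh1 and Ezh2), against 10.7% of all genes, and 5 in Sp1-/- cells (Ezh1, Ezh2, Eed, Bmi1 and Cbx2), against 18.6%. From HE2 to progenitors limma called 0 in Sp1+/+ cells, against 3.03% of all genes, and 1 in Sp1-/- cells, Suz12, against 15.3%. Over the whole path from Flk1+ cells to progenitors 6 members were called in Sp1+/+ cells, against 21.3%, and 5 in Sp1-/- cells, against 33.8%. Bmi1 rose and Cbx2, Ezh1, Jarid2 and Ezh2 fell in both, with Ring1 added in Sp1+/+ cells. By the threshold in the methods, the members at the steps into HE1, HE2 and progenitors and over the whole path numbered 1, 0, 0 and 2 in Sp1+/+ cells, against 8.55%, 3.31%, 1.74% and 8.59% of all genes, and 2, 1, 0 and 3 in Sp1-/- cells, against 9.49%, 5.61%, 5% and 12.3%. Leaving out 1 array moved the Sp1+/+ count over the whole path to between 3 and 6, with 3 reached without either Flk1+ or either progenitor array. At the step from HE1 to HE2 it moved the Sp1+/+ count to between 0 and 2 (0 without the first HE2 array, 1 without either HE1 array) and the Sp1-/- count to between 2 and 5 (2 without the second HE2 array, 3 without the first HE2 array or either Sp1+/+ progenitor array).

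Proliferation genes moved at the same steps. Of 9 proliferation markers, 3 fell into HE1 in Sp1+/+ and 7 in Sp1-/- cells, and 2 and 7 rose from HE1 to HE2. Their mean log2 intensity was 13.52 to 13.65 in Sp1+/+ Flk1+ cells, 13.30 to 13.31 in HE1 and 13.59 to 13.64 in HE2, and in Sp1-/- cells 13.48 to 13.53, 12.65 to 13.00 and 13.39 to 13.65. All 9 were well above background on every array, and their part in the course of Ezh2, Eed and Suz12 was not tested.

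The second question was what the loss of Sp1 DNA binding does to the members in each population. In 3 of the 4 populations no member was called, with 0 of 9 in Flk1+ cells against 6.98% of all genes, 0 in HE1 against 9.83% and 0 in HE2 against 5.68% by limma. By the threshold in the methods, an unadjusted p of at most 0.01 with at least 2-fold, the count was 0 in each. The shares of all genes by that threshold were 1.64%, 2.09% and 1.95%. In progenitors 1 member was called, Ring1, against 13.1% of all genes. The methods' threshold left 0 members there, against 4.1%. The differences ranged from -0.51 to 0.73 on the log2 scale, and all were under 2-fold. The median over the 9 members was 0.18, -0.13, -0.03 and 0.09 in the 4 populations, beside medians over all genes of 0.01 to 0.02.

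**Figure D3:**
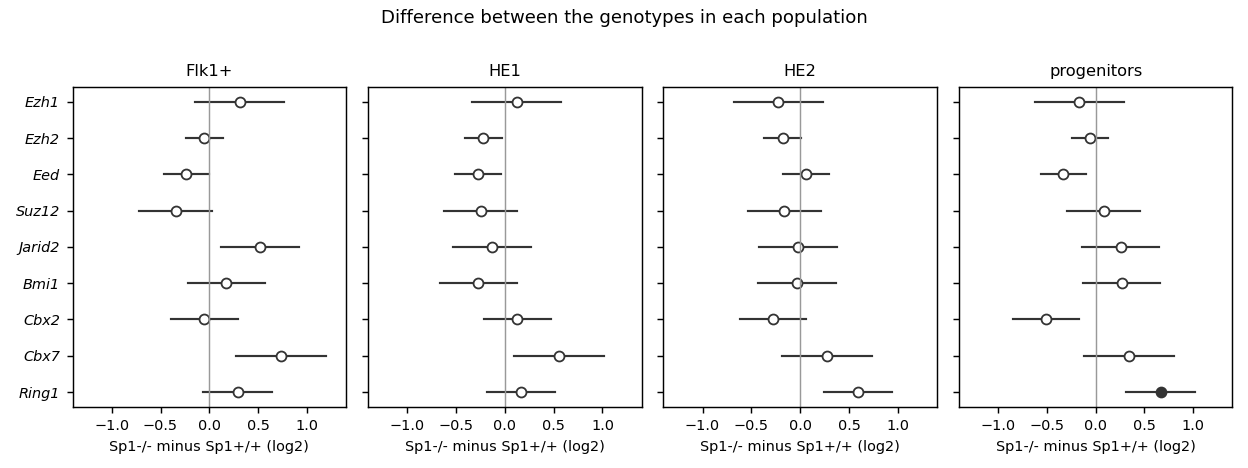
Sp1-/- minus Sp1+/+ log2 intensity (horizontal axis) of each member in each population. Bars are 95% confidence intervals from limma and the filled symbol was called at an adjusted p of at most 0.05. Ring1 and Cbx7 lie to the right of 0 in all 4 panels (without 1 array, Ring1 in HE1 reached -0.15 and Cbx7 in HE2 -0.035), and Ring1 in progenitors is the filled symbol.

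In progenitors Ring1 stood at 8.14 and 8.31 in Sp1+/+ and at 8.90 and 8.88 in Sp1-/- cells. The arrays did not overlap, and the difference of 0.67 (SE 0.159, 1.59-fold) had an adjusted p of 0.0182 by limma. The call was lost without the first Sp1+/+ progenitor array (0.58, adjusted p = 0.150 by limma) and without the first or second Sp1-/- progenitor array (adjusted p = 0.10 and 0.0821 by limma). In HE2 the 2 Sp1+/+ values of 7.92 and 8.04 lay below the 2 Sp1-/- values of 8.59 and 8.55, a difference of 0.59 (SE 0.159, adjusted p = 0.0570 by limma) that was called when either Sp1+/+ HE1 array was left out of the fit (adjusted p = 0.00417 by limma). In Flk1+ cells the difference was 0.29 without overlap, and in HE1 it was 0.16 with overlap, or 0.48 and called without the first Sp1+/+ HE1 array (adjusted p = 0.0360 by limma). The progenitors of the 2 genotypes also differed in other cells' markers. Of 6 erythroid markers, all well above background, 2 rose in Sp1-/- progenitors, and the list's mean log2 intensity was 13.0 to 14.5 in Sp1+/+ and 15.75 on both Sp1-/- arrays. Of 5 endothelial markers 1 fell, with list means of 8.45 to 9.70 and 7.72 to 7.94, and of 3 macrophage markers 2 rose, with list means of 9.77 to 10.3 and 10.7 to 10.9. Of 5 cardiac and smooth muscle markers 2 fell, with list means of 11.6 to 11.8 and 9.43 to 9.66, and of 4 mesenchyme markers 2 fell, with list means of 9.23 to 9.55 and 7.20 to 7.24. The part of these cells in the Ring1 difference was not tested.

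Cbx7, a PRC1 chromodomain subunit, was the dimmest member. Sp1+/+ cells gave 6.51 and 6.25 in Flk1+ cells, 6.29 and 6.39 in HE1, 6.09 and 6.26 in HE2, with progenitors at 6.23 and 6.27, and 1 of these 8 arrays, the first of Flk1+ cells, was well above background. Sp1-/- cells gave 7.22 and 7.0, 7.18 and 6.61, 6.75 and 6.14, and 6.64 and 6.55, with 7 of 8 arrays well above background. The arrays of the genotypes did not overlap except in HE2, where the second Sp1-/- array was not well above background. In Flk1+ cells, where 1 of the 2 Sp1+/+ arrays measured it, Sp1-/- exceeded Sp1+/+ by 0.73 (SE 0.209, adjusted p = 0.0637 by limma). In HE1 and progenitors the Sp1+/+ arrays were not well above background, so the Sp1+/+ level itself was not measured there. The Sp1-/- group means were higher by 0.56 in HE1 and by 0.345 in progenitors on the log2 scale. Neither difference was called (adjusted p = 0.128 and 0.344 by limma). The HE1 value rests on 2 unequal Sp1-/- arrays, since the log2 difference of 0.56 became 0.27 without the first and 0.84 without the second. In HE2 1 of 2 Sp1-/- arrays and 0 of 2 Sp1+/+ arrays were well above background. The log2 difference of 0.27 there (adjusted p = 0.584 by limma) became -0.035 without the first Sp1-/- array. The size depended on the background correction. In Flk1+ cells the difference was 1.09 with the offset of 16 given in the methods and 2.37 from processed scanner signals, neither called (adjusted p = 0.0661 and 0.0921 by limma). The deposited value was called without any 1 of the 4 Sp1-/- HE1 and HE2 arrays (adjusted p = 0.0295 and 0.0343 by limma).

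For the remaining members the largest differences were in Cbx2, Jarid2, Suz12 and Eed. Cbx2 in progenitors was at 10.52 and 10.38 in Sp1+/+ and at 10.06 and 9.83 in Sp1-/- cells, lower by 0.51 with an adjusted p of 0.0540 by limma, and was called without either Sp1-/- Flk1+ or either Sp1-/- HE1 array (adjusted p = 0.0461 and 0.0263 by limma). In the other populations it differed by -0.05, 0.13 and -0.28. Jarid2 in Flk1+ cells was at 11.82 and 11.78 against 12.53 and 12.10, which is 0.52 higher in Sp1-/- cells (adjusted p = 0.127 by limma, and 0.0468 without either Sp1-/- HE1 array). The difference was 0.30 without the first Sp1-/- Flk1+ array and 0.73 without the second. Suz12 was lower there by 0.35, without overlap and with an adjusted p of 0.296 by limma. Eed was lower in Sp1-/- cells by 0.23 in Flk1+ cells, 0.28 in HE1 and 0.33 in progenitors, each without overlap, and differed by 0.06 in HE2. Without the first Sp1-/- array the Flk1+ value was -0.09, and without the second -0.38. The difference in progenitors was called without either Sp1-/- Flk1+ array (adjusted p = 0.0396 by limma). Of the catalytic subunits, Ezh2 differed by -0.22 to -0.05 and Ezh1 by -0.22 to 0.31. Bmi1 ranged from -0.27 to 0.27. The 95% confidence intervals of the Ezh2 differences lie within -0.41 and 0.14, and those of Ezh1, whose replicates spread more, within -0.68 and 0.77. Groups of 2 arrays did not overlap for 6, 3, 3 and 7 of the 9 members in Flk1+ cells, HE1, HE2 and progenitors, against 51.6%, 45%, 45.4% and 62.5% of all genes.

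Because Ring1 and Cbx7 had been seen to lie on 1 side throughout, the mean of the 4 differences was fitted as a further contrast, chosen with these values known. By this mean 4 of 9 members were called, against 26.2% of all genes, and 0 by the methods' threshold, against 1.29%. The count of 4 includes the 2 members that prompted the contrast, so it cannot be weighed against the 26.2%. Ring1 and Cbx7 are 2 of the 4, and since they prompted the contrast their values, 0.43 (SE 0.0796) and 0.47 (SE 0.105) higher in Sp1-/- cells, restate the differences above. That of Cbx7 averages over Sp1+/+ groups not well above background and was 0.65 without background correction, 0.73 with the offset of 16 and 2.13 from processed scanner signals. Eed was lower by 0.19 (SE 0.0526, adjusted p = 0.0182 by limma) and Ezh2 by 0.13 (SE 0.0423, adjusted p = 0.0463 by limma). The call of Eed held with each array left out in turn, and that of Ezh2 was lost in 13 of the 16 cases. Proliferation genes differed with them in HE1, where all 9 markers were lower in Sp1-/- cells with a median of -0.50 and 2 of them called. In Flk1+ cells, HE2 and progenitors 4, 3 and 5 of the 9 were higher, with medians between -0.015 and 0.01. The part of proliferation genes in the differences of Eed and Ezh2 was not tested. Without the first Sp1-/- HE1 array 7 members were called. Whether the genotype difference itself shifted between populations was tested for the 3 steps and for progenitors against Flk1+ cells. By limma 0 of 9 members were called in any of these 4 comparisons, against 0.947%, 0.102%, 0.783% and 5.11% of all genes. The 4 comparisons share arrays with each other.

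Of 48 other genes listed for the same systems, 46 were measured, and their called differences between the genotypes reached -1.11 on the log2 scale. In Flk1+ cells 1 rose and 3 fell, in HE1 2 rose and 4 fell, in HE2 1 rose and 4 fell and in progenitors 4 rose and 5 fell. These are 4, 6, 5 and 9 of the 46, against 6.98%, 9.83%, 5.68% and 13.1% of all genes called. The medians of the 46 genes lay between -0.09 and 0.03. Epop, a PRC2 partner also known as a binder of elongin, Cbx6, a further chromodomain subunit of PRC1, and Ash2l, a core subunit of the H3K4 methyltransferase complexes, fell in all 4 populations. Epop and Cbx6 were lower in Sp1-/- cells under all 27 settings, with Cbx6 ranging from -0.78 to -0.29 in Flk1+ cells and from -0.70 to -0.12 in progenitors, and its calls held under 20, 25, 26 and 24 of the 27 settings in the order of the populations.

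Epop was at 14.41 and 14.34 in Sp1+/+ Flk1+ cells, 12.69 and 12.73 in HE1, 13.06 and 12.88 in HE2, with progenitors at 12.88 and 12.94. In Sp1-/- cells it was at 13.75 and 13.66, 11.73 and 11.88, 12.09 and 12.12, and 12.02 and 11.85. The genotypes were apart in every population, by -0.67, -0.91, -0.86 and -0.97 (SE 0.0951, adjusted p from 7.8e-05 to 0.00212 by limma). Cbx6 was lower by 0.64, 0.88, 1.11 and 0.68 (SE 0.128, adjusted p at most 0.0128 by limma), and its Sp1+/+ arrays ranged from 11.86 to 12.58 whereas its Sp1-/- arrays ranged from 10.77 to 11.73. Ash2l was lower by 0.43 in progenitors, by 0.39 in HE2, by 0.65 in HE1 and by 0.45 in Flk1+ cells, called under 24, 18, 25 and 22 of the 27 settings. On the side of rises, Phc1, a polyhomeotic subunit of PRC1, was higher by 0.60 in HE1, 0.57 in HE2 and 0.88 in progenitors, and Kmt2c, an H3K4 methyltransferase, by 0.49 in Flk1+ cells and 0.65 in progenitors.

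**Figure D4:**
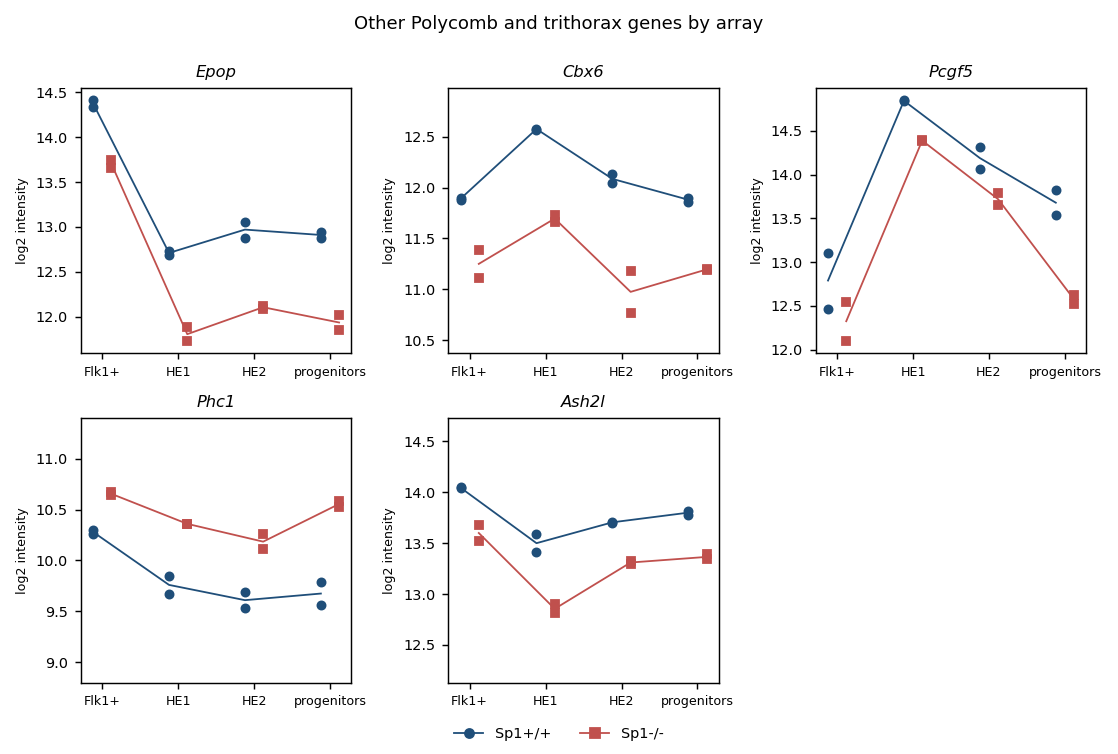
Log2 intensity (vertical axis) of 5 other Polycomb and trithorax genes in the 4 populations (horizontal axis). Each point is 1 array, all well above background, and lines join the means of 2 arrays. The vertical axis differs between panels. The Sp1-/- arrays of Epop, Cbx6 and Ash2l lie below and those of Phc1 above the Sp1+/+ arrays in each population, and those of Pcgf5 part from them most in progenitors.

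Other genes were called in fewer populations, which is no test of a difference between populations. Pcgf5, a subunit of variant PRC1, was at 13.82 and 13.54 in Sp1+/+ and at 12.52 and 12.63 in Sp1-/- progenitors (-1.10, adjusted p = 0.00407 by limma). It was lower in Sp1-/- Flk1+ cells, HE1 and HE2 as well under each of the 27 settings. A shift of the Sp1 effect between populations was called for Pcgf5, Phc1 and Kmt2c under 0 of the 27 settings. In HE1 Rbbp5, another H3K4 methyltransferase subunit, fell by 0.66, and Kdm6b, an H3K27 demethylase, rose by 0.56. The count in HE1 went from 6 to 19 without the first Sp1-/- HE1 array, and the counts in Flk1+ cells, HE2 and progenitors ranged from 1 to 4, 3 to 7 and 5 to 11 as single arrays were left out.

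At the step into HE1, 24 of these 46 other genes were called in Sp1+/+ cells, of which 7 rose and 17 fell, against 11.2% and 13.6% of all genes. In Sp1-/- cells 26 were called, of which 7 rose and 19 fell, against 12.6% and 16%. Pcgf5 rose by 2.05 and 2.06 in Sp1+/+ and Sp1-/- cells, whereas Epop fell by 1.67 and 1.90 and Pcgf6, of the variant PRC1 with E2F6, by 1.15 and 1.44. In Sp1-/- cells Mtf2, a PRC2 partner, also fell by 1.32 and Pcgf1 by 1.05. Both were lower in Sp1+/+ HE1 as well. Mtf2 was at 12.64 and 12.59 in Sp1+/+ Flk1+ cells and at 11.87 and 11.78 in HE1, and Pcgf1 at 9.57 and 9.26, then 8.57 and 8.32. From HE2 to progenitors Pcgf5 fell by 1.15 in Sp1-/- cells. In Sp1+/+ cells it was at 14.06 and 14.32 in HE2 and at 13.82 and 13.54 in progenitors, a step at which 0 of the 46 were called. Over the whole path Rybp, a variant PRC1 subunit, fell by 1.19 and 1.36, Kdm6b by 1.10 and 1.55, and Pcgf2, the closest paralog of Bmi1, by 1.07 in Sp1+/+ cells. Pcgf2 was also lower in Sp1-/- progenitors (9.23 on both arrays) than in Sp1-/- Flk1+ cells (10.40 and 10.01).

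The targets for which these regulators are best known were lower in Sp1-/- cells more often than higher. Of 39 Hox cluster genes tested, 1 rose and 5 fell in Flk1+ cells, 5 fell in HE1, 5 in HE2 and 9 in progenitors, against 3.63%, 5.48%, 3.33% and 6.93% of all genes called lower, with medians of -0.28, -0.33, -0.22 and -0.20. Only 33 of the 39 were well above background on every array of at least 1 group. The medians of these 33 were -0.485, -0.45, -0.47 and -0.41. The medians stayed below 0 under every setting tried, with single arrays left out as well, but their size and the number that fell depended on the setting. The numbers were 0, 0, 4 and 12 when each population was fitted on its own 4 arrays. In Flk1+ cells the median was -0.53 with 11 falls without the first Sp1+/+ array, -0.14 with 1 fall without the second, and 1 fell without either Sp1-/- array. In HE1 the falls ranged from 0 (without the second Sp1-/- array) to 7, in HE2 from 0 (without the second array of either genotype) to 7, and in progenitors from 1 (without the first Sp1+/+ or the second Sp1-/- array) to 10. Meis1, a cofactor of Hox proteins, was higher in Sp1-/- Flk1+ cells by 0.88 and lower in HE1, HE2 and progenitors by 0.54, 0.62 and 0.93, all called, although the call in HE1 held under 5 and that in HE2 under 11 of 27 settings. The Flk1+ arrays were at 8.45 and 8.43 in Sp1+/+ and at 9.28 and 9.36 in Sp1-/- cells, a direction opposite to the one in the text of the study. Cdkn2a, a cell cycle inhibitor locus silenced by Bmi1-containing PRC1 in many tissues, was at 11.23 and 11.02 in Sp1+/+ and 11.65 and 11.69 in Sp1-/- HE1, and at 12.08 and 12.24 in Sp1+/+ and 11.39 and 11.29 in Sp1-/- HE2. It was thus higher by 0.54 in HE1 and lower by 0.82 in HE2 and by 0.64 in progenitors, all called by limma, the first under 20 of 27 settings.

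Genes whose course over the 16 arrays was most like that of a member were sought for the 6 members whose group means spanned at least 1 log2 unit, as a description over arrays that share populations and slides. Cbx2 was followed most closely by Wnt3 (Pearson's r = 0.99), Zdbf2 (0.98) and Snai1 (0.98). The nearest to Ezh1 were Ankrd46, Mapre3 and Cdk20, to Suz12 Thap6, Zfp985 and Ddx55, to Jarid2 Sbsn, Ndufa7 and Galk1, to Bmi1 Mettl15, Lims1 and Fam111a, and to Ring1 Gatd1, Nasp and Tars, with r from 0.94 to 0.97. Between members r ran from -0.88 for Bmi1 and Cbx2 to 0.85 for Ezh2 and Eed.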

How the data were processed

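RNA from 16 sorted samples, 2 for each of 2 genotypes and 4 populations, was hybridized to one-color Agilent mouse arrays. The authors deposited 1 scanner file per array with linear spot intensities and a table of normalized log2 values. Per the labels the scanner files came from Agilent Feature Extraction 10.7.1.1, and the methods describe background correction with an offset of 16 and quantile normalization. A normexp correction with an offset of 50 gave values within 0.0258 of the deposited log2 values, and one with an offset of 16 differed from them by up to 1.63. They were used as deposited, which compresses differences of dim probes. The number of arrays limits the precision.

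Control spots were removed, spots of a probe averaged, target accessions (20869 of 37932 target names) given symbols through RefSeq, and the brightest probe kept per gene. Genes at log2 6 or above on at least 1 array (37154) were fitted with limma 3.58.1 in R 4.3.3, with 8 group means, empirical Bayes moderation and Benjamini-Hochberg adjustment, which was tested on simulated data. Samples were grouped by their labels. The members and lists were chosen with earlier results of these data known. Members and the called genes of the pathway list were named, with at least 2-fold required at the steps, at most 6 per comparison, and Meis1, Cdkn2a, Sp1 and the 3 genes most like each member. Results of 1 gene that met this rule are not reported here. Alternatives covered background correction, scaling, filters, probes, thresholds, the arrays fitted, the replicate block and single arrays left out. Lists of 4 ES cell, 6 blood progenitor and other markers checked the populations. Between the genotypes the ES cell list showed 1 rise in Flk1+ cells and 0 calls in the other populations. The blood progenitor list showed 1 rise and 1 fall in progenitors. Figures were drawn with matplotlib 3.10.9.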

Additional observations from a re-analysis of the deposited data

Results flagged for a closer look

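Among 25 named genes tested for a shift of the Sp1 effect between populations, 2 differed. For Meis1 the difference between Sp1-/- and Sp1+/+ shifted between Flk1+ cells and HE1 by -1.42 log2 units (SE 0.215, adjusted p = 0.0135 by limma) and by -1.81 from Flk1+ cells to progenitors (adjusted p = 0.00119 by limma), going from 0.88 in Flk1+ cells to -0.93 in progenitors. For Cdkn2a it moved by -1.36 from HE1 to HE2 (SE 0.160, adjusted p = 0.0152 by limma) and by -1.01 from Flk1+ cells to progenitors (adjusted p = 0.00547 by limma). The shifts from Flk1+ cells to progenitors were called under 27 of 27 settings for Meis1 and for Cdkn2a, that of Meis1 into HE1 under 22 and that of Cdkn2a into HE2 under 20.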

How the results depend on the processing

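Of 3978 recomputed member values, 1 reversed, that of Ezh2 from Flk1+ cells to Sp1-/- progenitors (0.0529 with the processed signal). With the processed signal the members called in Sp1-/- cells were 3 at the step into HE2 and 0 at the step into progenitors, and in Sp1+/+ cells 1 at the step into HE2 and 3 over the whole path from Flk1+ cells. At an adjusted p of at most 0.01 they were 2 (Sp1-/- HE1 to HE2), 0 (Sp1-/- HE2 to progenitors), 2 (mean Sp1 effect), 0 (Sp1 effect in progenitors), 2 (Sp1+/+ Flk1+ to progenitors) and 0 (Sp1+/+ HE1 to HE2). By an unadjusted p of at most 0.01 and 2-fold they were, in Sp1-/- cells, 2 into HE1, 1 into HE2, 0 from HE2 and 3 over the whole path, in Sp1+/+ cells 1, 0 and 2 for into HE1, into HE2 and the whole path, and 0 for the mean Sp1 effect and that in progenitors. With the arrays compared alone they were 1 and 2 at the later Sp1-/- steps, 0 from HE1 to HE2 in Sp1+/+ cells and 4 for the Sp1 effect in progenitors, and with the mean over probes 2 for the latter. With each array left out the counts ranged from 2 to 5 and 0 to 2 at the later Sp1-/- steps, 0 to 2 (Sp1+/+ HE1 to HE2), 3 to 6 (Sp1+/+ whole path), 3 to 7 (mean Sp1 effect), and 0 to 2, 0 to 1, 0 to 1 and 0 to 3 for the Sp1 effect in Flk1+ cells, HE1, HE2 and progenitors. The causes were not tested. Replicate numbers did not pair the arrays across all groups (r of deviations -0.174 to 0.503, 11 of 28 over 0.1). The highest r was between Sp1+/+ HE1 and HE2, which are compared above by a fit without pairing. The replicate block gave 1 member in Flk1+ cells (Cbx7 added), 2 in progenitors and 2 from HE2 to progenitors in Sp1-/- cells (Cbx2 added in either). The processed signal moved the median of all genes by over 0.1 in some comparisons, up to 0.186 for the Sp1 effect in HE1. Signal near background limited Cbx7.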
